A study of Mus musculus with 16 samples.

Results

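The matrix metalloproteinases (MMPs), their tissue inhibitors (TIMPs) and the related ADAMTS and ADAMTS-like (ADAMTSL) proteins were examined in mouse gonadal white adipose tissue, fed and fasted. All genes whose symbol is Mmp with a number, Timp1 to Timp4, or begins with Adamts were taken from the array's annotation, which gave 49 of the 22180 genes measured: 22 MMPs, 4 TIMPs, 18 ADAMTS proteases and 5 ADAMTSL genes. Genes were matched by symbol alone, but the families were picked with earlier results of these data known. Where a gene had several probe sets, the one with the highest mean over the 16 arrays stands for it.

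The 16 samples were taken in the morning from male C57BL/6 mice aged 3 to 4 months, 8 fed ad libitum and 8 after 16 hours of fasting, and were profiled on Affymetrix whole-transcript arrays. No genetic change or drug is given for either group. Whether each sample came from its own mouse is not said in the labels, and the p-values then refer to the variation among these samples, which may be technical in part. The question put to the arrays was how fasting changes gene expression in this fat depot.

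MMPs are zinc-dependent enzymes, mostly secreted as inactive precursors, which together cut the collagens, elastin, laminins and proteoglycans of the extracellular matrix, and TIMPs block them by filling the active site. ADAMTS proteases share the zinc-dependent catalytic domain but carry thrombospondin repeats that bind matrix, and different members cut aggrecan and versican, trim procollagen or act on fibrillin microfibrils. ADAMTSL proteins keep the repeats and lack the protease. In fat, fibres and basement membrane surround every adipocyte, and the remodelling of this matrix accompanies changes in fat cell size.

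Promoter windows, from 250 bases before to 50 bases after the annotated start, were read from RefSeq (GRCm38.p6) for 34 of the 49 genes. The letters TGACTCA, the consensus of the AP-1 transcription factor, were searched on both strands, and TATAAA, the TATA box, on the gene's strand; matches to these letters cannot overlap each other. TGACTCA was found in at least 1 window of 7 of the 34 genes (20.6%), against 1607 of the 27025 genes in the table (5.95%). TATAAA was found in 11 of the 34 (32.4%), against 2641 of 27025 (9.77%). All 7 genes with TGACTCA (Mmp1a, Mmp1b, Mmp3, Mmp7, Mmp10, Mmp12 and Mmp13) also held TATAAA, and all lie in 1 run of 10 neighbouring MMP genes with no other protein-coding gene between them. The windows of 4 genes are shown because the results return to them: Mmp3, the 1 gene of that run whose expression differed between the groups, Mmp10 with the same pair of motifs and no call, Mmp7, which stood far apart in single arrays, and Adamts1, a gene higher in fasted tissue with a TATA box and no TGACTCA. They lie at chr9:7445572-7445871, chr9:7502092-7502391 and chr9:7691840-7692139 on the plus strand and at chr16:85803064-85803363 on the minus strand, in that order. Each is written 5′ to 3′ on the gene's strand, with the matches to either motif in capitals (TGAGTCA is TGACTCA read on the other strand). For Mmp7 the table holds a second window with neither motif, which is not shown.
Mmp3: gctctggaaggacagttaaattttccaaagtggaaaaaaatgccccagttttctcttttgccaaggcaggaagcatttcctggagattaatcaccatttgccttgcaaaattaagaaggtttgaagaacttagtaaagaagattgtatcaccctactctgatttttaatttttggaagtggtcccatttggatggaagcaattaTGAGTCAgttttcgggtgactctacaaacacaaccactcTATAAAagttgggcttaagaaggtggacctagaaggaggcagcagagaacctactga
Mmp10: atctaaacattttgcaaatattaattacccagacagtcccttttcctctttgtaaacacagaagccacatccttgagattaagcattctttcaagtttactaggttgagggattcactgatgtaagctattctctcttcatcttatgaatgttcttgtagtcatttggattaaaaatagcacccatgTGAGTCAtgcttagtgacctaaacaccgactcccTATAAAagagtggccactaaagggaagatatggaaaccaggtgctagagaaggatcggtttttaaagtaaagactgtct
Mmp7: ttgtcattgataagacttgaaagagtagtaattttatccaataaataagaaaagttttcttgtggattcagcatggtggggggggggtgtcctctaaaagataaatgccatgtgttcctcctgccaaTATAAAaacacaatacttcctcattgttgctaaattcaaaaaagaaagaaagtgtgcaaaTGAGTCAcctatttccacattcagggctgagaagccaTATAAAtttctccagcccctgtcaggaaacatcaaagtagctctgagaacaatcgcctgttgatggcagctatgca
Adamts1: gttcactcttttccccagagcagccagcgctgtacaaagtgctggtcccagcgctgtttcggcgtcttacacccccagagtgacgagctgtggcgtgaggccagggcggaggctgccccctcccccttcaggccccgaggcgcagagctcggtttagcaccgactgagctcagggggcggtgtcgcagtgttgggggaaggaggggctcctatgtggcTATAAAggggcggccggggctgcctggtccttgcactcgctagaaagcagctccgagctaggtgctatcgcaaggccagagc
In Mmp3 the AP-1 letters begin 46 bases before the annotated start, and in Mmp10 and Mmp7 they begin 63 bases before it. The TATA letters nearest the start begin 7 bases before it in Mmp3, 29 in Mmp10, 26 in Mmp7 and 32 in Adamts1. Of the 12 genes called below, 8 had a window, and among these TGACTCA was in 1 (Mmp3) and TATAAA in 2 (Mmp3 and Adamts1). A match is a description of letters and not a site of binding.

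The deposited values are log2 signals after normalization by the authors, with array medians between 3.60 and 3.69 and correlations between arrays over all genes of 0.966 to 0.993. A log2 step of 1 is a factor of 2. The adipocyte marker list of 8 measured genes averaged 10.94 to 11.25 in the fed and 10.66 to 10.95 in the fasted arrays, so the tissue carried the markers of its label. Of the 49 genes, 27 reached a linear signal of 20 in 8 or more arrays, and 14 lay below the highest array median in all 16. Values of different genes come from different probes and are not set against each other.

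Fasting was accompanied by higher signal of 7 of the 49 genes and lower signal of 5 (limma, adjusted p under 0.05 over 22180 genes). Higher in fasted fat were Mmp3, Mmp11, Mmp14, Adamts1, Adamts4, Adamts6 and Adamts9, and lower were Mmp19, Mmp28, Timp4, Adamts5 and Adamtsl4. The 12 calls are 24.5% of the 49, beside 19.2% of all genes. Of the 27 members that reached a linear signal of 20 in 8 or more arrays, 11 were called (40.7%). That share was 34.6% over all genes that reached this signal, so dim genes lower the share over all genes. The 7 higher are 14.3%, beside 8.49% of all genes, and the 5 lower are 10.2%, beside 10.7%. Over all genes 44.3% of the calls were higher, and 54.7% were when gene medians were subtracted, a setting under which 8 of the 49 were higher and 4 lower. Both directions therefore held members, and the median log2 difference over all 49 was -0.02, beside -0.0042 over all genes. In 6 genes (12.2%) no fasted array overlapped a fed one, beside 6.48% of all genes: Mmp3, Mmp11, Adamts4, Adamts6 and Adamts9 higher, Mmp19 lower. Among genes that reached the linear signal of 20 in 8 or more arrays, it was 18.5% of members, beside 12.7% of all. Mmp11 and Adamts4 were the 2 members that differed by more than 2-fold.

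**Figure D1:**
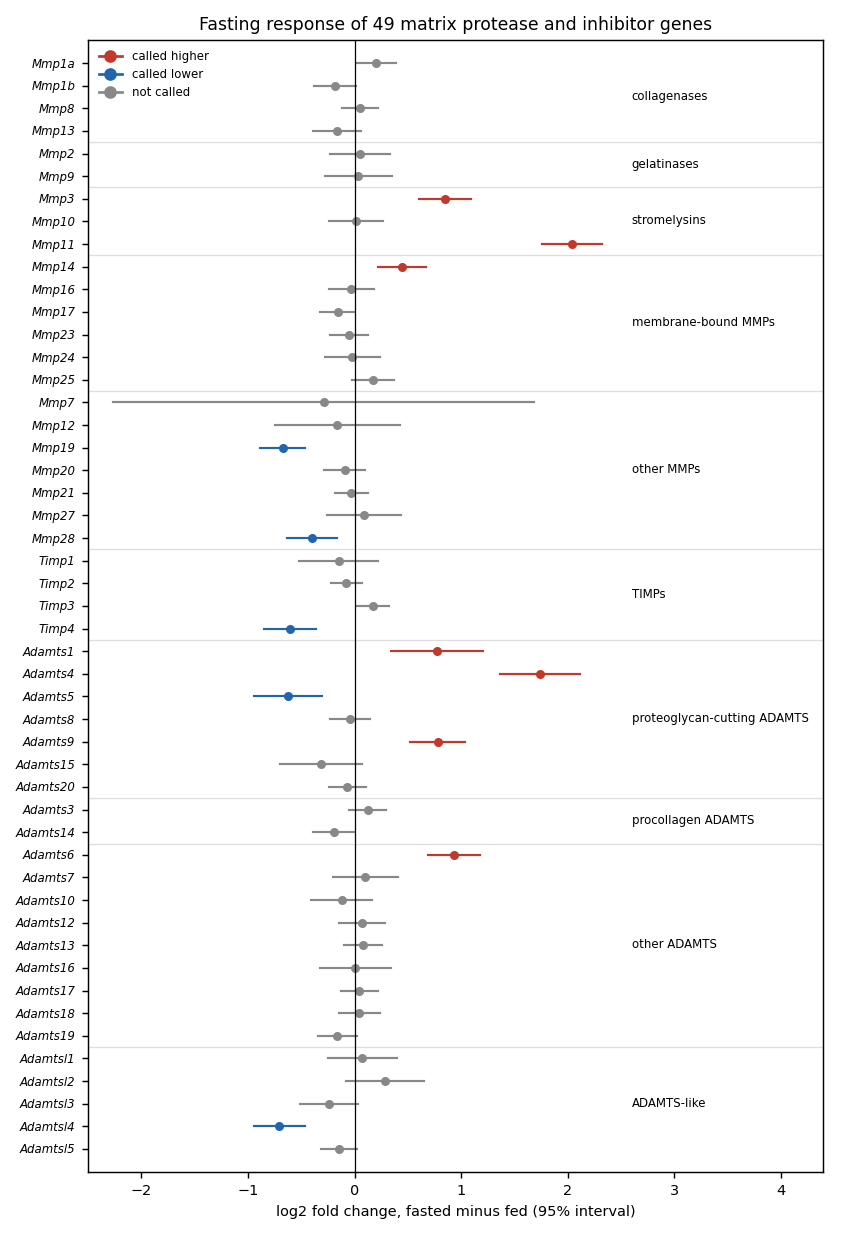
Log2 difference, fasted minus fed, of each of the 49 genes (horizontal axis) with its 95% interval from limma, grouped by role, with called genes coloured by direction. Mmp11 at 2.04 and Adamts4 at 1.74 lie farthest to the right, and the widest interval is that of Mmp7, from -2.27 to 1.69.

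The role groups below are small and were drawn up with earlier results known, so their shares are descriptions. They are set beside shares over all genes, dim ones included. Among the 3 genes grouped by name as stromelysins, 2 were higher in fasted fat (66.7%, beside 8.49% of all genes). Mmp11, stromelysin-3, which is activated inside the cell by furin-type convertases rather than outside it, ranged from 4.70 over a median of 5.11 to 5.51 in the fed arrays and from 6.61 over 7.19 to 7.74 in the fasted arrays. The lowest fasted array stood above the highest fed one by more than the whole fed range. The mean rose from 5.12 ± 0.23 (SD, n = 8) to 7.16 ± 0.33 (SD, n = 8), a log2 difference of 2.04 (SE 0.13, 95% interval 1.76 to 2.32) or 4.11-fold (limma, adjusted p = 4.58e-09). A dimmer probe set of the same gene rose by 1.54 (SE 0.15), from 4.64 ± 0.25 to 6.17 ± 0.38 (SD, n = 8 each), and followed the first across the 16 arrays. Mmp3, stromelysin-1, which cuts proteoglycans and basement membrane and can activate other MMPs, ranged from 2.77 over 2.97 to 3.16 in fed and from 3.28 over 3.84 to 4.20 in fasted arrays. These are dim values: every fed array lay below the array medians, and the gene did not reach a linear value of 20. The groups did not overlap, and the difference of 0.85 (SE 0.12, 95% interval 0.60 to 1.09, adjusted p = 2.98e-05 in limma) is a compressed measure at such low signal. Mmp10, stromelysin-2, was 2.97 ± 0.21 in the fed group and 2.98 ± 0.29 in the fasted group (SD, n = 8 each), a difference of 0.01 with an interval of -0.24 to 0.27.

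Collagenases and gelatinases did not differ past the threshold. Collagenases as a class make the first cut in fibrillar collagen. The 4 genes grouped with them, Mmp1a, Mmp1b, Mmp8 and Mmp13, had values below 3 in every array. Their differences ran from -0.19 (Mmp1b, adjusted p = 0.205 in limma) to 0.21 (Mmp1a, adjusted p = 0.122 in limma). At such signal a difference in RNA may not be detectable. The gelatinases cut denatured collagen and collagen IV, and both were well measured. Mmp2 was 8.32 ± 0.17 in the fed group and 8.37 ± 0.37 in the fasted group (SD, n = 8 each), with an interval of -0.23 to 0.34 for the difference (limma, adjusted p = 0.857). Fasted replicate 1 read 9.21, with the other 7 at or below 8.37, and without it the difference of 0.05 became -0.07 (adjusted p = 0.710). Mmp9 was 6.21 ± 0.22 and 6.25 ± 0.40 (SD, n = 8 each), with an interval of -0.28 to 0.35.

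Of the 6 membrane-bound MMPs, Mmp14 was called (16.7%, beside 19.2% of all genes). It encodes MT1-MMP, the surface collagenase that activates the precursor of MMP2 and is known to be needed for fat tissue growth. Fed arrays ran from 8.07 over 8.21 to 8.37 and fasted arrays from 8.23 over 8.59 to 9.17, with 7 of the 8 fasted arrays above the highest fed one. The mean rose from 8.20 ± 0.12 to 8.64 ± 0.29 (SD, n = 8 each), by 0.44 (SE 0.11, 95% interval 0.22 to 0.67, adjusted p = 0.00582 in limma). The highest value was that of fasted replicate 1, and without it the difference was 0.37 (adjusted p = 0.00672). Mmp23 was 6.66 ± 0.09 in the fed group and 6.61 ± 0.22 in the fasted group (SD, n = 8 each), with an interval of -0.23 to 0.12. Mmp16, Mmp17, Mmp24 and Mmp25 did not reach the linear value of 20, and differed by -0.16 (Mmp17) to 0.17 (Mmp25) without passing the test.

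Among the other 7 MMPs the 2 called genes were both lower (28.6%, beside 10.7% of all genes). Mmp19, which cuts basement membrane proteins, ranged from 7.66 over 7.85 to 8.06 in fed and from 6.88 over 7.09 to 7.59 in fasted arrays. No array of one group reached the other, and the closest was fasted replicate 7 at 7.59. The mean fell from 7.84 ± 0.16 to 7.16 ± 0.25 (SD, n = 8 each), a log2 difference of -0.68 (SE 0.10, 95% interval -0.89 to -0.46) or 1.60-fold (limma, adjusted p = 8.12e-05). Mmp28, epilysin, ranged from 6.32 over 6.64 to 6.99 in fed and from 5.92 over 6.25 to 6.59 in fasted arrays, with 5 fasted arrays below all fed ones. Its difference of -0.40 (SE 0.11, adjusted p = 0.0173 in limma) was not called after subtraction of gene medians (adjusted p = 0.0548). Mmp12, the macrophage elastase, was 6.73 ± 0.44 in the fed group and 6.57 ± 0.77 in the fasted group (SD, n = 8 each), with an interval of -0.75 to 0.42. Fasted replicate 5, at 4.95, was the lowest fasted array, and without it the difference of -0.16 became 0.07 (adjusted p = 0.891). Mmp20, Mmp21 and Mmp27 were dim and not called, and Mmp7 is described after the ADAMTS genes.

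In the run of 10 neighbouring MMP genes (Mmp13, Mmp12, Mmp1b, Mmp3, Mmp1a, Mmp10, Mmp8, Mmp27, Mmp20 and Mmp7, from RefSeq's gene order) Mmp3 was the 1 called gene. Of all genes 19.2% were called. Mmp12 was the 1 gene of the run that reached a linear value of 20 in 8 arrays. The other 9 include all the genes with TGACTCA other than Mmp12, so for most of these windows the arrays held little signal to compare.

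Of the 4 TIMPs, 1 was lower (25%, beside 10.7% of all genes) and 3 were not called. Timp4, the inhibitor known to be abundant in adipose tissue, ranged from 9.34 over 9.81 to 9.998 in fed and from 8.74 over 9.21 to 9.40 in fasted arrays. The ranges met only narrowly, with 6 fasted arrays below the lowest fed one. The mean fell from 9.74 ± 0.24 to 9.13 ± 0.26 (SD, n = 8 each), a difference of -0.60 (SE 0.12, 95% interval -0.85 to -0.36) or 1.52-fold (limma, adjusted p = 9.57e-04). Timp3, the inhibitor held in the matrix that also blocks several ADAMTS proteases, was 9.18 ± 0.13 and 9.36 ± 0.12 (SD, n = 8 each), a difference of 0.18 with an interval of 0.03 to 0.33 (limma, adjusted p = 0.0962). It was called when dim genes were left out (adjusted p = 0.0427) and when gene medians were subtracted (adjusted p = 0.0439). Timp2, which also takes part in MMP2 activation at the cell surface, was 10.52 ± 0.09 and 10.44 ± 0.14 (SD, n = 8 each), with an interval of -0.22 to 0.07. Timp1, the inducible inhibitor, was 4.60 ± 0.30 and 4.45 ± 0.46 (SD, n = 8 each), with an interval of -0.52 to 0.22.

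The 7 ADAMTS proteases that cut proteoglycans held 4 calls (57.1%, beside 19.2% of all genes), 3 higher and 1 lower. Adamts4, aggrecanase-1, ranged from 4.08 over 4.34 to 5.02 in fed and from 5.54 over 6.07 to 6.83 in fasted arrays, with a clear gap between the groups. The mean rose from 4.43 ± 0.33 to 6.17 ± 0.45 (SD, n = 8 each), by 1.74 (SE 0.18, 95% interval 1.36 to 2.12) or 3.34-fold (limma, adjusted p = 1.10e-06). Adamts9, which cuts versican and aggrecan and also works early in the secretory pathway, ranged from 7.61 over 7.87 to 8.00 in fed and from 8.05 over 8.61 to 9.09 in fasted arrays. The groups did not overlap, and the fed arrays lay close together (SD 0.11) while the fasted ones spread (SD 0.35). The mean rose by 0.78 (SE 0.12, 95% interval 0.52 to 1.04), or 1.72-fold (limma, adjusted p = 1.21e-04). Adamts1, an early-described versican-cutting member, ranged from 6.63 over 6.98 to 7.51 in fed and from 7.08 over 7.76 to 8.77 in fasted arrays. Here the groups overlapped, and 5 fasted arrays stood above all fed ones. The mean rose by 0.78 (SE 0.21, 95% interval 0.35 to 1.21), or 1.71-fold (limma, adjusted p = 0.0106).

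Adamts5, aggrecanase-2, was the lower member of that role. Fed arrays ran from 9.40 over 10.27 to 10.44, with fed replicate 3 lowest, and fasted arrays from 9.08 over 9.53 to 10.09. The ranges overlapped, with 3 fasted arrays below all fed ones. The mean fell from 10.14 ± 0.34 to 9.52 ± 0.32 (SD, n = 8 each), a difference of -0.62 (SE 0.15, 95% interval -0.94 to -0.30) or 1.54-fold (limma, adjusted p = 0.00625). Adamts1 and Adamts5 are adjacent in RefSeq's gene order, with no other protein-coding gene between them, and were called in opposite directions. Adamts15 had a difference of -0.32 with an interval of -0.70 to 0.07, and Adamts8 and Adamts20 were dim in both groups.

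**Figure D2:**
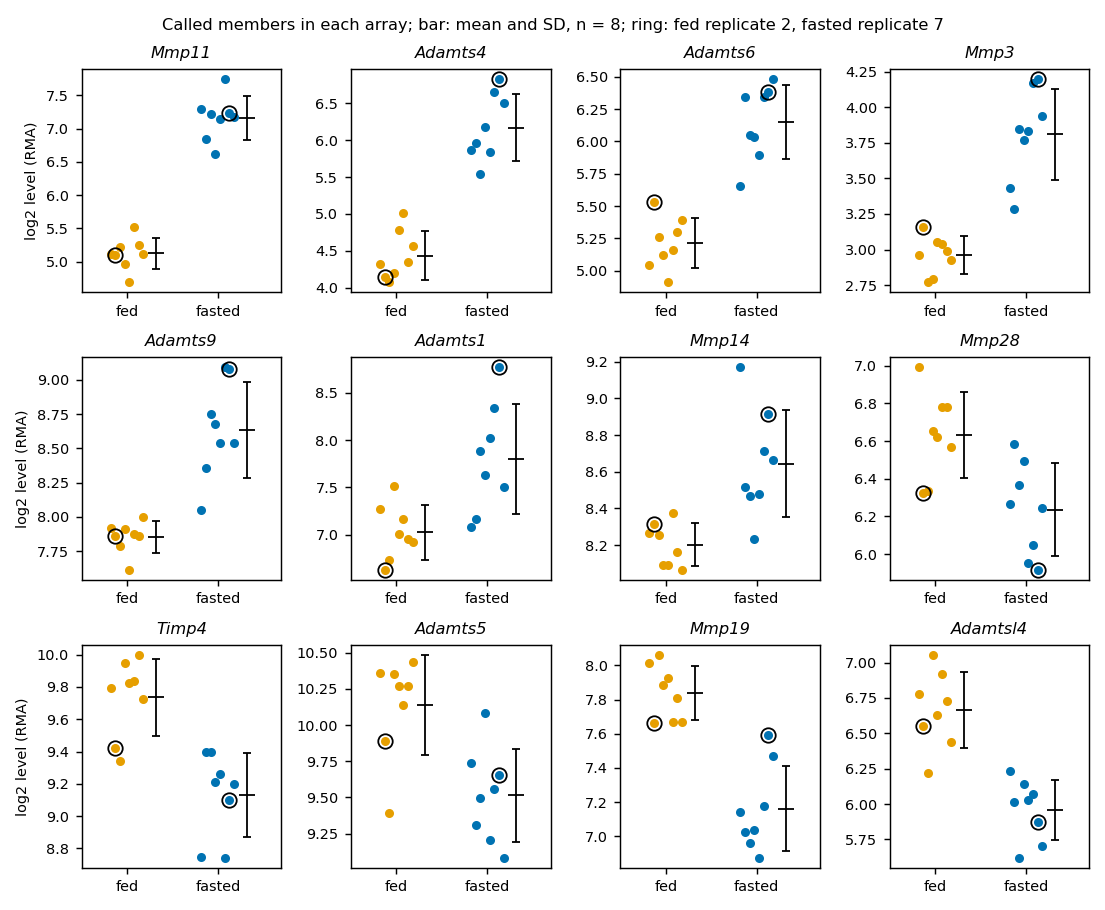
Log2 signal of the 12 called genes in every array (vertical axis, 1 panel a gene), with fed and fasted arrays side by side, bars for each group's mean and SD (n = 8), and rings around fed replicate 2 and fasted replicate 7. The fed and fasted points do not overlap in Mmp3, Mmp11, Mmp19, Adamts4, Adamts6 and Adamts9, and overlap in the other 6.

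Neither of the 2 procollagen-trimming genes was called: Adamts3 differed by 0.12 (adjusted p = 0.378) and Adamts14 by -0.19 (adjusted p = 0.186). Adamts14 was called without fasted replicate 4 (-0.26, adjusted p = 0.0172). Among the 9 remaining ADAMTS genes Adamts6, a relative of Adamts10 and like it linked to fibrillin microfibrils, was called (11.1%, beside 19.2% of all genes). It ranged from 4.91 over 5.21 to 5.53 in fed and from 5.65 over 6.19 to 6.48 in fasted arrays, with no overlap. The mean rose from 5.21 ± 0.20 to 6.15 ± 0.29 (SD, n = 8 each), by 0.93 (SE 0.12, 95% interval 0.69 to 1.18) or 1.91-fold (limma, adjusted p = 1.04e-05). Adamts10 itself was 6.89 ± 0.19 and 6.77 ± 0.37 (SD, n = 8 each), with an interval of -0.41 to 0.17. Adamts12 was 7.88 ± 0.21 and 7.95 ± 0.22 (SD, n = 8 each), with an interval of -0.14 to 0.29. Adamts16 differed by 0.0092, the smallest difference of the ADAMTS proteases (interval -0.32 to 0.34).

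Of the 5 ADAMTSL genes, Adamtsl4, whose product binds fibrillin-1, was lower in fasted fat (20% of the group, beside 10.7% of all genes). Fed arrays ran from 6.22 over 6.68 to 7.05 and fasted arrays from 5.62 over 6.02 to 6.23, with 7 fasted arrays below all fed ones and the highest just touching them. The mean fell from 6.66 ± 0.27 to 5.96 ± 0.21 (SD, n = 8 each), a difference of -0.70 (SE 0.12, 95% interval -0.95 to -0.46) or 1.63-fold (limma, adjusted p = 1.76e-04). Adamtsl1 differed by 0.07, Adamtsl2 by 0.28, Adamtsl3 by -0.24 and Adamtsl5 by -0.15, and none passed the test (adjusted p from 0.237 to 0.828).

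Over all roles, the 37 genes without a call differed by -0.32 to 0.28. The 95% interval of the difference lay within 0.5 of 0 for 31 of them and within 1 of 0 for 36, the exception being Mmp7. Of these 37, 16 reached the linear value of 20 in 8 or more arrays. For the other 21 a low signal in most or all arrays limits what could be detected. For Mmp7, 1 of them, the spread between arrays limits it too. A missing call does not show that the RNA was the same in both groups.

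**Figure D3:**
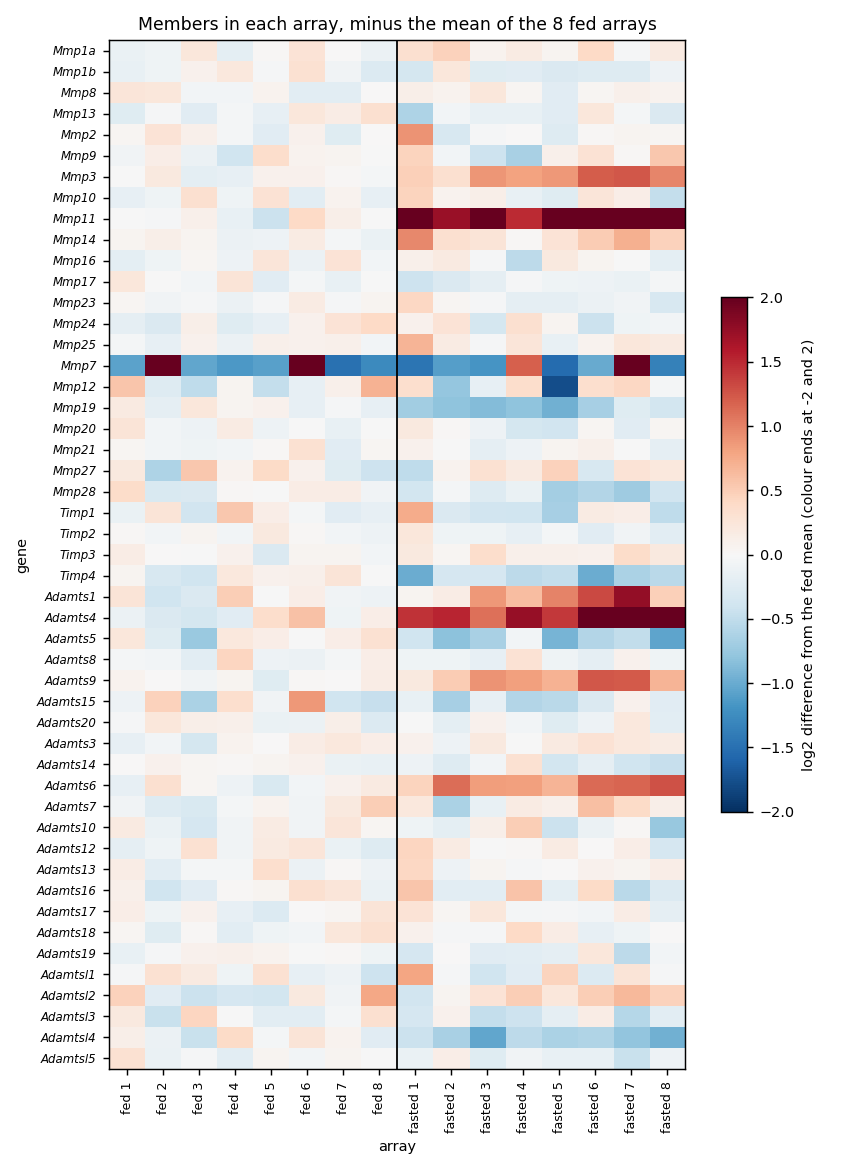
Difference of each of the 49 genes from its mean over the fed arrays (colour, log2, cut at -2 and 2) in the 8 fed and 8 fasted arrays, with genes ordered by role. The called genes show a step between the groups, while Mmp7 stands out in fed replicates 2 and 6 and fasted replicates 4 and 7.

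The spread within groups was itself uneven. The SD was larger in fasted than in fed arrays for 31 of the 49 genes (63.3%), beside 56.1% of all genes. It was larger for 10 of the 12 called ones, for which no share over all called genes was taken. Fasted replicate 7 had the highest fasted value in 3 of the 7 genes that rose (Mmp3, Adamts1 and Adamts4) and the first or second highest in 6. It was also the highest fasted array for Mmp19, which fell. The ranks of this array were not counted over all called genes, so they cannot be read as particular to these families. Fasted replicate 1 had the lowest fasted value in Adamts1, Adamts6 and Adamts9, although Adamts6 and Adamts9 in that array were still above all fed arrays. Without fed replicate 2 and fasted replicate 7, all 12 calls were kept, and the difference of Adamts1 became 0.58 (adjusted p = 0.0281), that of Adamts4 1.61 and that of Mmp19 -0.76.

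Mmp7, matrilysin, a small MMP made by glandular and ciliated epithelia, was the 1 gene of the 49 that was high in both of those arrays, beside 2.87% of all genes (636), by a rule that asked each array to exceed all others of its group, by at least 0.5 over their median. Fed replicates 1 to 8 read 3.28, 9.03, 3.31, 3.19, 3.26, 6.78, 2.85 and 3.08. Fasted replicates 1 to 8 read 2.89, 3.25, 3.17, 5.54, 2.81, 3.33, 8.47 and 3.00. Fed replicate 2 and fasted replicate 7 were thus far above the rest, and fed replicate 6 and fasted replicate 4 were raised as well, so the gene was not high in those 2 arrays alone. The other 12 arrays lay between 2.81 and 3.33, whichever group they belonged to. The excess over the median of the other 7 was 5.77 in fed replicate 2 and 5.30 in fasted replicate 7, and by the smaller excess Mmp7 ranked 1 of the 636 genes. These 2 arrays were singled out with earlier results of these data known. The count, share and rank therefore describe the arrays and test nothing. Between the groups the difference was -0.29 (SE 0.94, 95% interval -2.27 to 1.69, adjusted p = 0.896 in limma), an interval so wide that a change by feeding state could not be detected. A second, dim probe set of Mmp7 read 2.88 in fed replicate 2 and 2.90 in fasted replicate 7. The other fed arrays reached at most 2.51 and the other fasted arrays at most 2.81. Its correlation with the first probe set over the 16 arrays was 0.74.

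**Figure D4:**
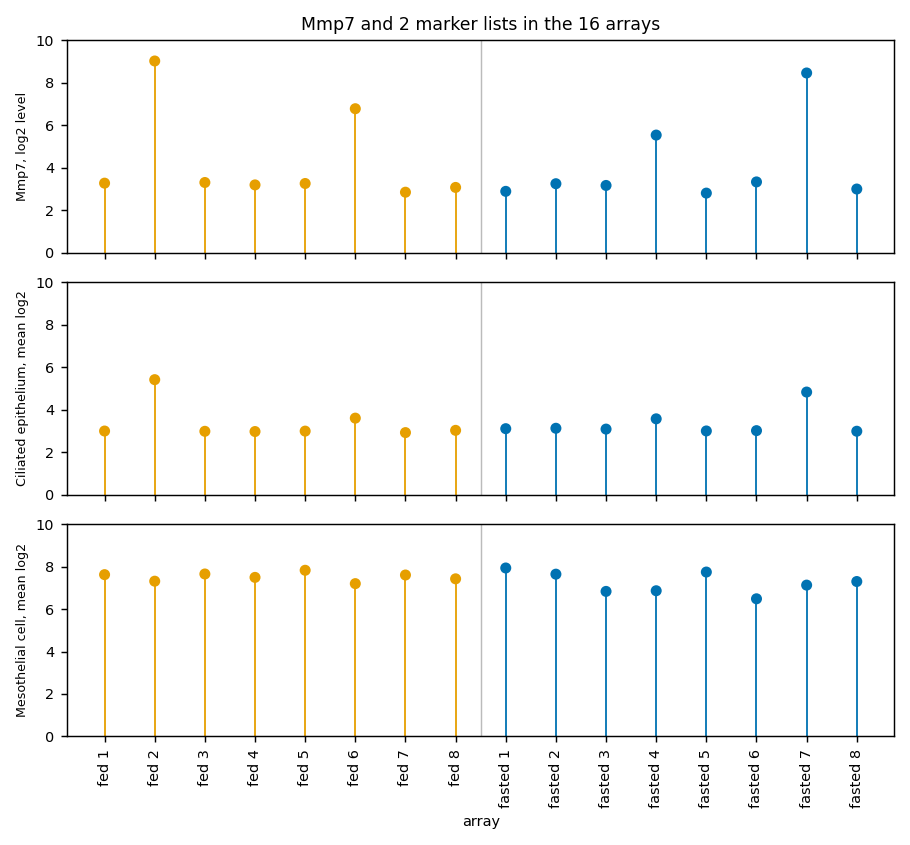
Log2 signal of Mmp7 in the 16 arrays (points, by group and replicate) beside the mean log2 signal of the 14 measured ciliated epithelium markers and of the 9 mesothelial cell markers. Mmp7 and the ciliated list are highest in fed replicate 2 (9.03 and 5.41) and fasted replicate 7 (8.47 and 4.83), and next highest in fed replicate 6 and fasted replicate 4, while the mesothelial list is not highest in either.

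Markers of ciliated epithelium moved with Mmp7 in the same arrays, and the other lists named here did so less or not at all. The ciliated epithelium list (14 of 17 genes measured) averaged 5.41 in fed replicate 2 and 2.92 to 3.60 in the other fed arrays, with fed replicate 6 at 3.60. It averaged 4.83 in fasted replicate 7 and 2.98 to 3.57 in the other fasted arrays, with fasted replicate 4 at 3.57. Of its 14 genes 10 were high in both arrays, and Foxj1, the regulator that defines ciliated cells, read 5.77 and 4.95 there against at most 3.92 and 3.87 in the others. The epididymis and vas deferens list (18 of 22 measured, 12 of them below the overall median in all arrays) averaged 3.26 and 3.13 in the same arrays, against 2.84 to 2.99 and 2.83 to 3.00 in the others, and Adam7 was its 1 gene high in both. The mesothelial list lay within the range of the other arrays (7.31 and 7.13), and Krt8, an epithelial keratin, was its 1 gene high in both, at 7.36 and 6.84 against at most 6.14 and 5.92 in the others. The liver list (12 genes) averaged 8.63 in fed replicate 2 and 8.23 in fasted replicate 7. The other fed arrays ran from 6.44 to 8.85 and the other fasted arrays from 6.71 to 8.31. The part of any of these cell types in the Mmp7 values was not tested.

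Bulk tissue was measured, so fewer cells of a type and less RNA per cell cannot be told apart. The adipocyte list (8 genes) averaged 10.94 to 11.25 in fed and 10.66 to 10.95 in fasted arrays, with 1 gene called higher and 3 lower. The fibroblast and progenitor list (8 genes) averaged 8.87 to 9.11 in fed and 8.61 to 9.30 in fasted arrays, with 0 of its genes called higher and 2 lower. The macrophage list (9 genes) averaged 8.37 to 8.68 and 8.34 to 8.95, with 3 called higher and 2 lower. The endothelial list (9 genes) averaged 8.05 to 8.55 and 8.17 to 8.54, with 2 called higher. The smooth muscle and pericyte list (7 genes) averaged 6.88 to 7.84 and 6.41 to 7.43, with a median difference of -0.62, 1 gene higher and 3 lower. Neutrophil markers were at or near background, with 7 of 9 below the overall median in every array, and 1 of the 9, Elane, was called higher. The highest progenitor and macrophage averages were both those of fasted replicate 1. Over all genes 8.49% were called higher and 10.7% lower. The part of these cell types in the differences above was not tested.

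Genes that switch the proteases on and off were examined from 3 lists. Of 44 genes listed, 42 were measured, and 6 were higher and 6 lower in fasted fat (14.3% each, beside 8.49% and 10.7% of all genes). Of the 33 that reached a linear signal of 20 in 8 or more arrays, 11 were called, beside 34.6% of all such genes. In the list of activators and inhibitors (11 of 11 measured), 3 were higher and 2 lower, 45.5% beside 19.2% of all genes. All 5 calls were among the 10 genes of this list that reached that signal. Pcsk5, a proprotein convertase that cleaves secreted precursors, rose from 5.30 ± 0.21 to 6.68 ± 0.18 (SD, n = 8 each), by 1.38 (SE 0.096) or 2.61-fold, with no overlap between the groups (limma, adjusted p = 9.03e-09). Furin, the convertase that activates MMP11 and MT1-MMP, rose by 0.29 (SE 0.069, adjusted p = 0.00451), while the related Pcsk6 fell by 0.40 (SE 0.12, adjusted p = 0.0194). Lrp1, the endocytic receptor that clears several of these proteases and inhibitors, rose by 0.36 (SE 0.060, adjusted p = 2.07e-04). Pcolce, which enhances procollagen trimming by BMP1, fell from 6.37 ± 0.07 to 5.56 ± 0.35 (SD, n = 8 each), a difference of -0.81 (SE 0.12, adjusted p = 7.06e-05). Reck, a membrane inhibitor of MMPs, differed by 0.03 (adjusted p = 0.873).

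In the plasminogen system (6 of 8 measured), which activates MMP precursors, the urokinase receptor gene Plaur rose by 0.64 (SE 0.14, adjusted p = 0.00195) and no other gene was called. That call is 16.7% of the list, beside 19.2% of all genes. Plg, plasminogen itself, spread widely (SD 1.48 in fed and 0.96 in fasted arrays, n = 8 each). Its interval of -1.37 to 0.94, and that of Serpinf2 of -1.23 to 0.65, leave a change undetectable within them. Among 25 other proteases that cut matrix, 2 were higher and 4 lower (24.0%, beside 19.2% of all genes). Of the 19 that reached a linear signal of 20 in 8 or more arrays, 5 were called, beside 34.6% of all such genes. Adam15 rose by 0.42 (SE 0.084, adjusted p = 0.00111), and Elane, a dim gene that is also on the neutrophil list, by 0.60 (SE 0.19, adjusted p = 0.0296). Adam12 fell by 0.72 (SE 0.11, adjusted p = 8.11e-05), Htra1 by 0.63 (SE 0.087, adjusted p = 3.34e-05), Adam8 by 0.48 (SE 0.16, adjusted p = 0.0403) and Tll1 by 0.44 (SE 0.13, adjusted p = 0.0251).

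Among the matrix proteins that these enzymes cut (23 of 24 measured), 3 were higher and 5 lower in fasted fat, 13.0% and 21.7% of the list, beside 8.49% and 10.7% of all genes. Of the 18 that reached a linear signal of 20 in 8 or more arrays, 7 were called, beside 34.6% of all such genes. Versican, the proteoglycan cut by Adamts1, Adamts4, Adamts5 and Adamts9, was lower at the RNA level: Vcan fell by 0.38 (SE 0.12, adjusted p = 0.0264). Lum, lumican, a small collagen-binding proteoglycan, fell by 0.68 (SE 0.16, adjusted p = 0.00468), Col3a1, a fibrillar collagen, by 0.73 (SE 0.11, adjusted p = 9.94e-05) and the basement membrane gene Nid2 by 1.06 (SE 0.11, adjusted p = 1.96e-06). The dim gene Ncan also fell. Thbs1, thrombospondin-1, rose by 1.03 (SE 0.19, adjusted p = 6.92e-04), Eln, elastin, by 0.59 (SE 0.17, adjusted p = 0.0218) and Col4a1 by 0.32 (SE 0.096, adjusted p = 0.0221). Aggrecan, for which the aggrecanases are named, was near background: Acan was 2.53 in fed and 2.57 in fasted arrays (adjusted p = 0.823).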

How the data were processed

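The deposited table holds log2 values of 16 arrays after RMA, per the submitters' processing notes. RMA corrects background, sets the arrays to a shared distribution and summarises probes, so a shift of most transcripts in 1 direction cannot be seen. That the scale is log2 was read from the values (0.99 to 13.2). No software version, genome build or scan batch is given in the sources used here. Of 41345 probe sets, 23521 have 1 symbol, 1814 have several and 16010 are unnamed here, and only those with 1 symbol were used. The 49 genes had 53 such probe sets. All 49 symbols were found unchanged in RefSeq.

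The groups were tested with limma 3.58.1, run under R 4.3.3, in a model with feeding state alone (lmFit, then eBayes at its defaults), with Benjamini-Hochberg adjustment over 22180 genes and calls at an adjusted p under 0.05. SE and 95% intervals of differences are moderated, intervals are not adjusted, and differences are fasted minus fed. The fit was checked on simulated data. The number of arrays limits the precision. Motifs were searched with Python 3.11.15.

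The members, role groups and lists were chosen with earlier results of these data known. Named genes are the called members, uncalled members with a mean of at least 6, the brightest of each role, members high in fed replicate 2 and fasted replicate 7, and up to 5 called genes of each list by size of change. Any other name was picked after its values were seen. The alternatives comprised a filter on dim genes, other centring (1 added after seeing the data), cyclic loess, other limma settings, a replicate block, the lowest probe set, a stricter threshold and each array left out.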

Additional observations from a re-analysis of the deposited data

Results flagged for a closer look

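Within the 98 groups of 8 values (49 genes, fed and fasted), 6 (6.12%) held a highest or lowest array set apart from the others by Dixon's criterion, and chance alone marks about 1 in 20 groups. Fasted replicate 1 accounted for 3 of the 6. It read 9.21 for Mmp2, with the next array at 8.37, 10.75 for Timp2, with the next at 10.48, and 3.06 for the dim gene Adamts13, with the next at 2.79. The same array had the highest fasted value of Mmp14 (9.17) and Timp1 (5.34). It had the highest average of the fibroblast and progenitor (9.30), macrophage (8.95), mesothelial (7.93), mast cell (5.40) and neutrophil (3.20) marker lists. Its average was the lowest of the fasted arrays for the adipocyte (10.66), lymphocyte (3.79) and endothelial (8.17) lists. The part of those cells in its values was not tested.

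The other 3 were single values. Timp3 read 8.90 in fed replicate 5, with the next fed array at 9.14. The dim collagenase genes Mmp1b and Mmp8 read 2.38 in fasted replicate 2, above the next at 2.05, and 2.16 in fasted replicate 5, below the next at 2.41.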

How the results depend on the processing

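Of the 12 called genes, 11 were called in the same direction in every one of the 25 alternative fits that tested them; the exception was Mmp28, lost with the replicate block (adjusted p = 0.0582) and with gene medians subtracted (adjusted p = 0.0548), and Mmp3 was too dim to be tested under the filter. Uncalled genes changed sign 43 times, in 13 genes. Timp3 was gained under 2 settings, Mmp1b without fasted replicate 2 (-0.24, adjusted p = 0.0466) and Adamts14 without fasted replicate 4. At an adjusted p under 0.01, 2766 genes were called, with 6 higher and 4 lower of the 49 and 4 substrate genes; Adamts1 and Mmp28 were no longer called. With each array left out, 3823 to 4265 genes were called, with 7 higher and 5 to 6 lower of the 49. Same-numbered fed and fasted arrays deviated together with correlations of -0.22 to 0.22, and 2 fed arrays correlated best with their own number. Pairing by number was thus not evident, though these values cannot exclude it. The replicate block gave 3829 genes, 7 higher and 4 lower. The balance of calls moved with the centring: 44.3% were higher as deposited, 37.7% with array medians subtracted, 45.5% after cyclic loess and 54.7% with gene medians subtracted, a setting chosen after seeing the data, which gave 8 higher and 4 lower of the 49. The median difference of all genes stayed between -0.028 and 0.036. For the 22 genes below the linear value of 20, low signal over background limits what could be detected.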
